A study of Mus musculus with 7 samples.

Results

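The 34 genes described here mark glutamatergic projection neurons of the cerebral cortex and the layers in which these neurons lie. They were listed by symbol: 7 genes for projection neurons in general, 12 genes of the upper layers and 15 genes of the deep layers. Of the 7, Slc17a6 is also a gene of subcortical neurons and Tbr1 one of layer 6, as described below. A gene was taken where its symbol matched a probe set annotated to 1 gene, and where a gene had several such probe sets the brightest on average was kept. All 34 genes were found among the 22180 genes measured. Projection neurons send axons out of the cortex or to other cortical areas and use glutamate as their transmitter. In textbook accounts, upper-layer neurons connect cortical areas with each other, neurons of layer 5 reach the brainstem, the spinal cord and the striatum, and neurons of layer 6 project to the thalamus. Many of the genes that mark these classes encode transcription factors that set the fate of the neuron during development and are still transcribed in the adult. Others encode transporters, receptors, calcium-binding proteins and other proteins that the mature class uses.

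The RNA came from medial prefrontal cortex (mPFC) of ribosome TRAP mice (TRAP is the purification of tagged, translating ribosomes) crossed to an ArcCre line, in which Cre is driven by Arc, a gene transcribed on neuronal activity. Both groups were given tamoxifen together with the treatment, which let Cre tag the ribosomes of cells active at that time with GFP. Immunoprecipitation against GFP then recovered those ribosomes with their RNA. The cocaine group (4 arrays, with the title numbers 4 to 7) had received 15 mg/kg cocaine for 2 days, and the shock group (3 arrays, numbers 4 to 6) 20 shocks of 0.5 mA, each 2 s long, for 2 days. RNA was hybridised to one-colour Affymetrix arrays, 1 column of values per array. Arc also drives Cre in any cell that transcribes it, and the sources used here give no age, sex, strain background or number of mice per array. Separate animals or pools behind the arrays are likewise not named, so each p-value is set against array-to-array spread that could be technical.

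Values are on the log2 scale, read from the numbers themselves, so a difference of 1 would be a doubling. The level under which a gene is called dim was 5.44, the 95th percentile of olfactory and vomeronasal receptor genes. Of the 34 genes, 33 lay above it, and only Neurod1 (mean 5.32) was dim, where 62.3% of all genes lay above the level. The genes listed for cortical projection neurons, Neurod1 apart, were not absent from these arrays. Markers of other cells were present too: 9 of 10 inhibitory neuron markers, 7 of 7 astrocyte markers, 5 of 5 measured oligodendrocyte markers and 6 of 6 vessel markers were above that level. In a precipitate of bulk tissue, fewer cells of a type and less RNA per cell cannot be told apart. Levels of different genes are not compared here, because each probe set has its own response.

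For no member did the difference between the cocaine and the shock arrays pass the test. By limma (two-sided, Benjamini-Hochberg adjustment over all 22180 genes), 0 of 34 members passed an adjusted p of 0.05, against 0% of all genes, and the smallest adjusted p was 0.938. At an unadjusted p of 0.05, 0 of 34 members passed, where 3.1% of all genes did. Groups that do not overlap were found for 0 of 34 members, against 2.37% of all genes. Of the members, 15 had a higher and 19 a lower mean in the cocaine arrays, and 30 of the 34 differences were smaller than 0.1, where 75.6% of all genes and 83.6% of genes above the dim level had so small a difference. The median difference over the members was -0.0044, beside 0.0016 over all genes and -0.0011 over genes above the dim level.

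The intervals show how large a difference the spread between these arrays allows. Since that spread could be technical, they do not bound a difference between treated animals. The 95% interval of the difference lay within 1.5-fold in either direction for 34 of 34 members, as it did for 94.2% of all genes. Its bound farthest from 0 was 0.50, the upper end for Neurod6. The next widest were the lower end for Rorb at -0.34 and the upper end for Pou3f2 at 0.34.

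**Figure D1:**
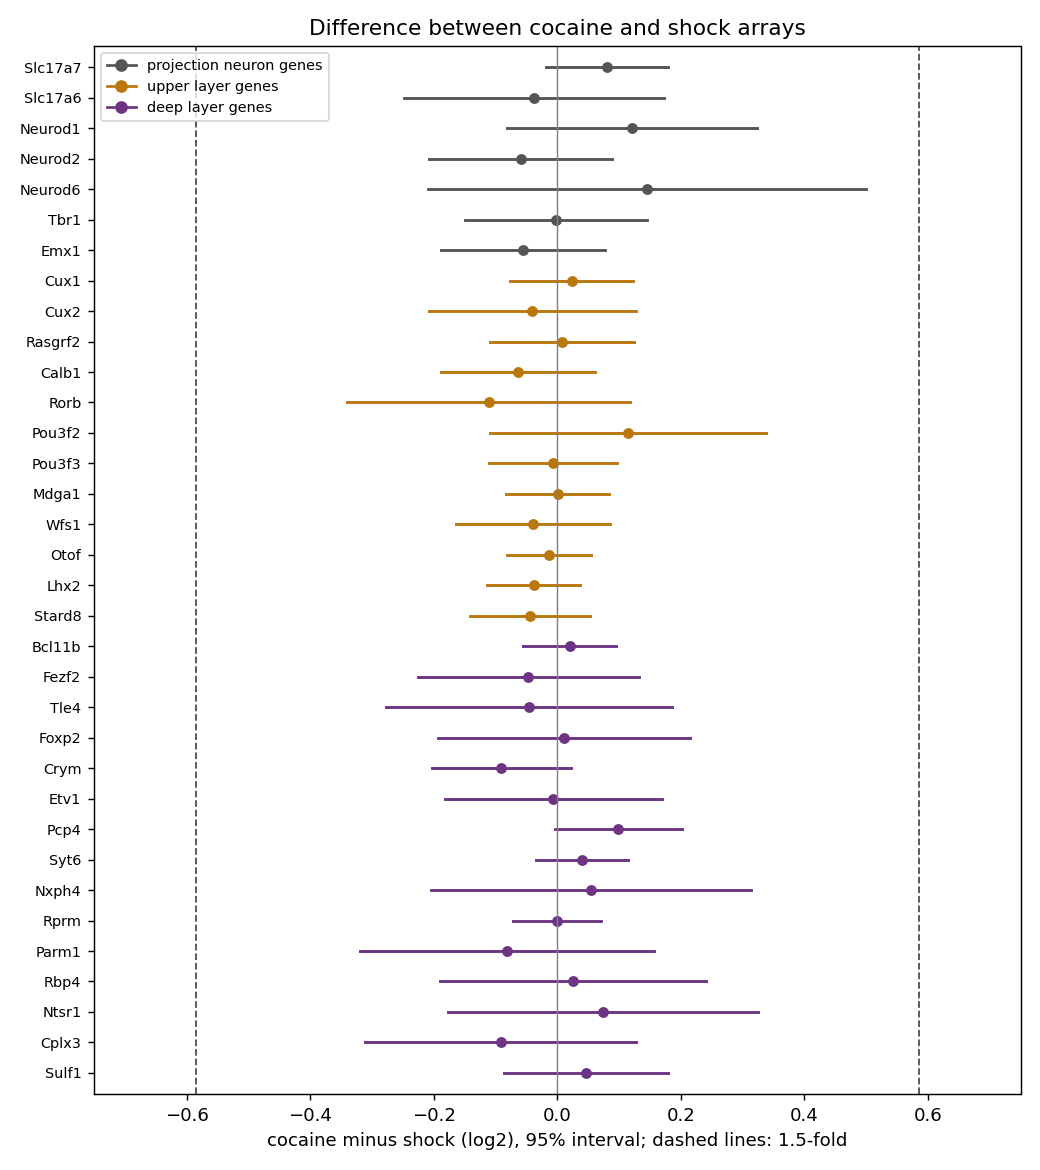
Difference between the groups for each member (cocaine minus shock, log2) with its 95% interval from limma, 4 cocaine and 3 shock arrays. Every interval stays inside the dashed lines at 1.5-fold, and every one covers 0.

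Upstream sequence is shown for 3 members on which the description below turns: Slc17a7, the general marker of cortical glutamatergic neurons, Pcp4, the member with the smallest unadjusted p, and Neurod2, whose window holds a match to the E-box letters that NeuroD factors are known to prefer. Each run is the 250 bases before the annotated start in RefSeq (GRCm38.p6), 5′ to 3′ on the gene's own strand, with matches in capitals. The windows lie at chr7:45163671-45163920 (plus strand, Slc17a7), chr16:96467356-96467605 (plus strand, Pcp4) and chr11:98329646-98329895 (minus strand, Neurod2).
Slc17a7: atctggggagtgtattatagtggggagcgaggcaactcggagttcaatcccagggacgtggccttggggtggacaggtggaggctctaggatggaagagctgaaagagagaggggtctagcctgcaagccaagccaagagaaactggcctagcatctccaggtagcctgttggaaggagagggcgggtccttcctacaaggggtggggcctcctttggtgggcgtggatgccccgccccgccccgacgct
Pcp4: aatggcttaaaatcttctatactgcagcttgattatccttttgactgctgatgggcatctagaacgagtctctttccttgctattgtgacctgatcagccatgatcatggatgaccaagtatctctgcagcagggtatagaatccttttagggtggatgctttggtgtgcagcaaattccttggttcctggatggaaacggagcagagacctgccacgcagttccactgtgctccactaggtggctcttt
Neurod2: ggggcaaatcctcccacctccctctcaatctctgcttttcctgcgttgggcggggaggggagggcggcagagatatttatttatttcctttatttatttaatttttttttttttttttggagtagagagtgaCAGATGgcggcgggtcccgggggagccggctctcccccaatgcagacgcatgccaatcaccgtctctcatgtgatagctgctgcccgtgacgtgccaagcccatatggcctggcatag
The letters CAGATG (or CATCTG on the other strand) lay at bases -118 to -113 from the start of Neurod2. A match to these letters was present for 5 of the 28 members with a sequence in the table (17.9%: Neurod2, Slc17a6, Cux2, Wfs1 and Etv1), against 16.3% of 27025 genes, which is close to the background. The cAMP response element TGACGTCA, bound by a factor that neuronal activity engages, was present for 0 of the 28 members and for 1.77% of all genes. The octamer ATGCAAAT (or ATTTGCAT on the other strand), named for POU factors such as Pou3f2 and Pou3f3, was present for 0 of 28 members and for 1.81% of all genes. A match is a description of letters in this window and no binding site, and the 28 members have 37 annotated starts, so a gene counts once for any of its starts.

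Among the general genes of projection neurons, 3 of 7 had a higher and 4 of 7 a lower cocaine mean, and the median difference was -0.0025. Slc17a7, the vesicular glutamate transporter of most cortical projection neurons (probe set 17477714, Entrez 72961), had 11.78, 11.69, 11.72 and 11.73 in the cocaine arrays 4, 5, 6 and 7, against 11.69, 11.68 and 11.58 in the shock arrays 4, 5 and 6. Cocaine array 5 and shock array 4 had the identical value, and the groups met there without crossing. The difference was 0.081 (SE 0.042, 95% interval -0.018 to 0.18, limma unadjusted p = 0.0944, adjusted p = 0.938), and without shock array 6, the lowest, it was 0.047.

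Slc17a6, the related transporter of thalamic and other subcortical glutamatergic neurons, had 8.53, 8.65, 8.42 and 8.79 in the cocaine arrays and 8.57, 8.69 and 8.65 in the shock arrays. The cocaine values lay on both sides of all shock values, and the difference was -0.038 (SE 0.088). Thalamus markers, which could accompany it, had scores of -0.066 to 0.17 in the cocaine arrays and -0.077 to 0.044 in the shock arrays. A score is formed on each array by centring every gene of a list on its own 7-array mean and averaging over the list.

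The 3 NeuroD genes encode helix-loop-helix transcription factors that drive and maintain the glutamatergic neuron fate. They did not share a pattern over the arrays. Neurod6 had 8.42, 8.10, 8.33 and 8.04 in the cocaine arrays, against 8.27, 7.77 and 8.20 in the shock arrays, and this was the largest difference of all members at 0.15 (SE 0.15, limma unadjusted p = 0.363). Shock array 5 alone lay below every cocaine array, and without it the difference was -0.011. The within-group SD of Neurod6, 0.22, was the largest of the 34 members and exceeded that of 97% of genes above the dim level. Neurod2 differed by -0.059 (SE 0.062) and by -0.011 without cocaine array 6, had the same value on 3 arrays and was lowest at 8.89 on cocaine array 6. Neurod1, the dim member, had 5.54, 5.27, 5.37 and 5.30 in the cocaine arrays and 5.11, 5.32 and 5.32 in the shock arrays, a difference of 0.12 (SE 0.085) that was 0.052 without shock array 4.

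Tbr1, a T-box factor of early-born glutamatergic neurons that persists in layer 6, had 8.29, 8.40, 8.41 and 8.55 in the cocaine arrays and 8.41 in each of the 3 shock arrays. Its value was identical to the last digit on 4 arrays, cocaine array 6 included, so its SD in the shock group was 0. Emx1, a homeobox gene of the dorsal forebrain lineage that gives rise to these neurons, differed by -0.055 (SE 0.056) and was highest at 6.03 on shock array 4. Identical values on 2 or more arrays occurred for 17 of the 34 members and for 66.9% of all genes. They make some within-group SDs smaller than independent values would give.

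**Figure D2:**
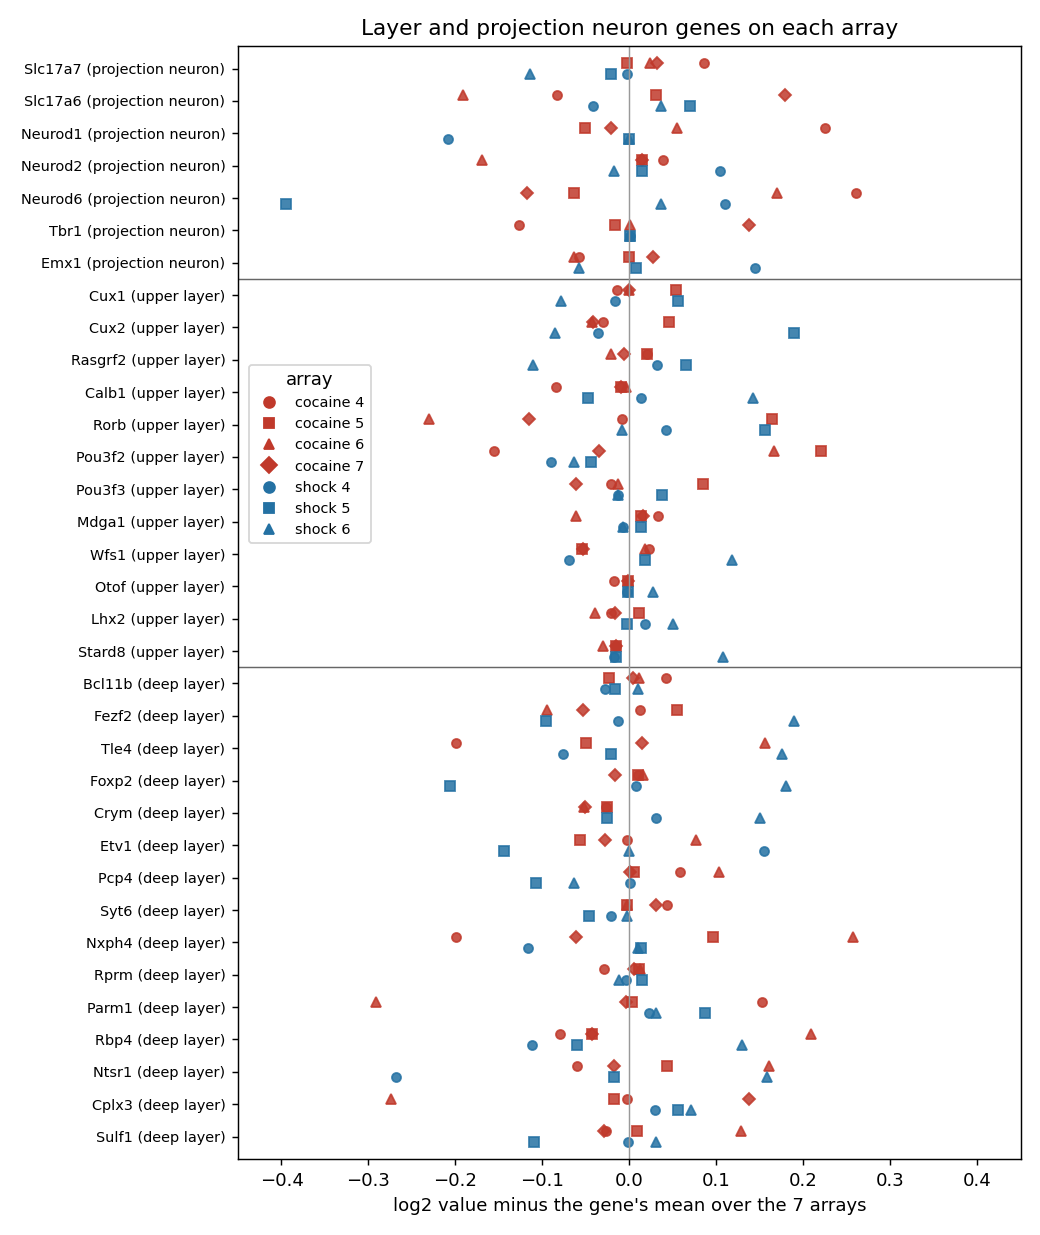
Each member's log2 value minus its mean over the 7 arrays. Cocaine arrays (red, upper row of each gene) and shock arrays (blue, lower row) interleave in most rows, and the farthest point is Neurod6 on shock array 5.

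The upper-layer genes had a median difference of -0.026, and the cocaine mean was higher for 4 of 12 and lower for 8 of 12. Cux1 and Cux2, cut-homeobox factors that shape the dendrites of upper-layer neurons, were close to level. Cux2 had 7.46, 7.54, 7.45 and 7.45 in the cocaine arrays, against 7.45, 7.68 and 7.40 in the shock arrays. Array 5 was the highest in both groups. The difference was -0.040 (SE 0.070), and it was 0.043 without shock array 5. Cux1 differed by 0.023 (SE 0.042) with the kept probe set. Its second probe set, with a mean of 3.86, was far under the dim level and differed by 0.13. It was used only in the alternative that averages the probe sets of a gene. There the Cux1 difference was 0.077 and its groups did not overlap.

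Rorb, a nuclear receptor gene best known from layer 4, had the most negative difference of all members. It had 9.25, 9.43, 9.03 and 9.15 in the cocaine arrays, against 9.30, 9.42 and 9.25 in the shock arrays. The highest and the lowest value both belonged to cocaine arrays, 5 and 6. The difference was -0.11 (SE 0.096, 95% interval -0.34 to 0.12, limma unadjusted p = 0.287), and without cocaine array 6 it was -0.050. Pou3f2, a POU-homeobox factor needed for upper-layer neuron production, had 6.27, 6.65, 6.60 and 6.40 in the cocaine arrays and 6.34, 6.39 and 6.37 in the shock arrays. Cocaine array 4 lay below all shock arrays and the other 3 cocaine arrays above them. The difference was 0.11 (SE 0.094, limma unadjusted p = 0.263), and 0.18 without cocaine array 4. Its partner gene Pou3f3 differed by -0.0064 (SE 0.044).

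Calb1, the calcium buffer calbindin, found in upper-layer projection neurons and in some interneurons, had 9.66, 9.73, 9.74 and 9.73 in the cocaine arrays, against 9.76, 9.70 and 9.89 in the shock arrays. Shock array 6 was the highest. The difference was -0.063 (SE 0.053), and -0.010 without shock array 6. Shock array 6 also had the highest score of the inhibitory neuron markers (0.17, against -0.10 to 0.042 on the other 6 arrays), and the part of those cells in the Calb1 value was not tested.

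The remaining 6 upper-layer genes differed by at most 0.044 in either direction. Rasgrf2, an exchange factor for Ras found in layer 2/3, differed by 0.0078 (SE 0.049), and Mdga1, a membrane-anchored adhesion protein, by 0.00090 (SE 0.035). Wfs1, an endoplasmic reticulum protein gene, differed by -0.039 (SE 0.052). Lhx2, a LIM-homeobox gene of cortical progenitors, differed by -0.038 (SE 0.032), and Stard8 by -0.044 (SE 0.041), which was -0.0028 without shock array 6. Otof, the gene of the calcium sensor otoferlin, had 8.06, 8.07, 8.07 and 8.07 in the cocaine arrays and 8.07, 8.07 and 8.10 in the shock arrays. Its within-group SD of 0.012 was the smallest of all members, smaller than that of all but 1.54% of genes above the dim level, and 4 of its values were identical.

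Deep-layer genes had a median difference of 0.011, and the cocaine mean was higher for 8 of 15 and lower for 7 of 15. For layer 5, the zinc-finger factors Fezf2 and Bcl11b specify neurons that project below the cortex, and neither passed the test. Fezf2 had 8.26, 8.31, 8.16 and 8.20 in the cocaine arrays, against 8.24, 8.15 and 8.44 in the shock arrays. The shock arrays held both the highest and the lowest value. The difference was -0.047 (SE 0.075), and 0.035 without shock array 6. Bcl11b, which is also a gene of striatal neurons and interneurons, ranged over 0.071 on all 7 arrays and differed by 0.020 (SE 0.032).

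Pcp4, a small calmodulin-binding protein of layer 5 neurons that is also abundant in striatum, came nearest to a difference. It had 12.51, 12.45, 12.55 and 12.45 in the cocaine arrays 4, 5, 6 and 7, against 12.45, 12.34 and 12.38 in the shock arrays 4, 5 and 6. Cocaine array 7 and shock array 4 had the identical value, and no shock array lay above a cocaine array. The difference was 0.099 (SE 0.043, 95% interval -0.0044 to 0.20, limma unadjusted p = 0.0580, adjusted p = 0.938), a fold of 1.07. Over the single arrays left out it stayed between 0.073 and 0.13. The score of the 5 measured striatal markers lay on the same side: it was 0.030 to 0.16 in the cocaine arrays, against -0.12 to -0.044 in the shock arrays, and it was highest on cocaine array 6, where Pcp4 was highest too. Which cells gave the RNA of these markers, and whether striatal RNA had a part in the Pcp4 difference, was not tested.

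Crym, a thyroid hormone-binding protein gene of deep-layer neurons, had the smallest unadjusted p among members that were lower in the cocaine arrays. Its values were 8.26, 8.26, 8.23 and 8.23 in the cocaine arrays, against 8.32, 8.26 and 8.44 in the shock arrays. Cocaine array 5 and shock array 5 had the same value, and no cocaine array lay above a shock array. The difference was -0.091 (SE 0.047, limma unadjusted p = 0.0973), and -0.041 without shock array 6. Etv1, an ETS factor of layer 5, differed by -0.0063 (SE 0.074), and its second probe set by -0.041. Parm1, a mucin-like membrane protein gene, had 9.35, 9.20, 8.91 and 9.20 in the cocaine arrays and 9.22, 9.29 and 9.23 in the shock arrays. Cocaine array 4 lay above all shock arrays and the other 3 cocaine arrays below them, and the difference of -0.081 (SE 0.10) was 0.0042 without cocaine array 6. Rbp4, the gene of a retinol carrier used to mark layer 5, differed by 0.025 (SE 0.090), and Sulf1, an extracellular sulfatase of heparan sulfate, by 0.047 (SE 0.056), which was 0.0056 without shock array 5.

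Genes of layer 6 and of the deepest cortical neurons did not pass the test either. Tle4, a corepressor of corticothalamic neurons, had 8.57, 8.72, 8.93 and 8.79 in the cocaine arrays, against 8.70, 8.75 and 8.95 in the shock arrays. Array 6 was the highest in both groups, and the difference was -0.046 (SE 0.097). Ntsr1, the neurotensin receptor gene that marks corticothalamic neurons, had 7.40, 7.50, 7.62 and 7.44 in the cocaine arrays and 7.19, 7.44 and 7.62 in the shock arrays. Array 6 was again the highest in both groups. The difference was 0.074 (SE 0.11). Leaving out shock array 4 gave -0.039, and leaving out shock array 6 gave 0.17. Foxp2, a forkhead factor of layer 6 and of striatum, stayed between 7.65 and 7.68 in the cocaine arrays but had 7.68, 7.46 and 7.85 in the shock arrays. Its shock SD of 0.19 compared with 0.014 in the cocaine group, and the difference was 0.011 (SE 0.085).

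Rprm, a gene tied to arrest of the cell cycle and found in layer 6, was the flattest of these genes. It had 8.61, 8.65, 8.65 and 8.64 in the cocaine arrays and 8.64, 8.65 and 8.63 in the shock arrays, a difference of -0.00024 (SE 0.030). Syt6, a synaptotagmin gene, differed by 0.040 (SE 0.031). Nxph4, a neurexophilin gene of the deepest cortical neurons, had 7.02, 7.32, 7.48 and 7.16 in the cocaine arrays, against 7.10, 7.23 and 7.23 in the shock arrays. All shock values lay inside the cocaine range, and the difference was 0.054 (SE 0.11). Cplx3, a complexin gene of the same neurons, had 6.06, 6.04, 5.79 and 6.20 in the cocaine arrays and 6.09, 6.12 and 6.13 in the shock arrays. Here cocaine array 6 was the lowest, whereas it was the highest for Nxph4, and the difference of -0.092 (SE 0.092) was -0.013 without it.

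Set side by side, upper- and deep-layer genes varied more between arrays of one group than between the groups. The upper-layer score was -0.024, 0.044, -0.022 and -0.028 in the cocaine arrays 4, 5, 6 and 7, against -0.012, 0.035 and 0.0065 in the shock arrays 4, 5 and 6. Array 5 was the highest in both groups. The deep-layer score was -0.021, 0.00090, 0.028 and -0.0073 in the cocaine arrays, against -0.026, -0.045 and 0.071 in the shock arrays, and array 6 was the highest in both groups. The upper minus deep score was -0.0037, 0.043, -0.049 and -0.021 in the cocaine arrays and 0.014, 0.081 and -0.064 in the shock arrays. Its highest and its lowest value thus both lay in the shock group. The group means were -0.0077 ± 0.039 (SD, n = 4) for cocaine and 0.010 ± 0.072 (SD, n = 3) for shock, a difference of -0.018. Leaving out shock array 6 gave -0.055, and leaving out shock array 5 gave 0.017. No p is given for a score, since the members were chosen with earlier results of these arrays known.

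**Figure D3:**
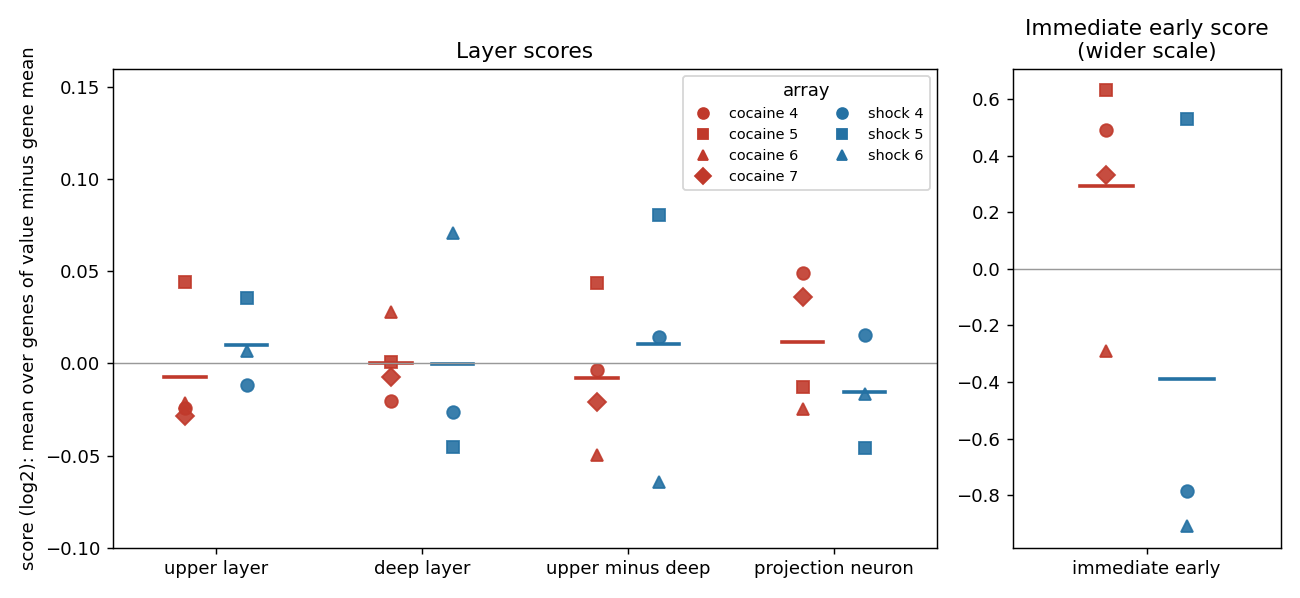
List scores on each array (points) with group means (bars), cocaine in red and shock in blue. The layer scores stay between -0.064 and 0.081, while the score of 10 immediate early genes, on its own wider axis, runs from -0.91 to 0.63.

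The immediate early genes, which neurons transcribe briefly after activity, gave a scale for these numbers on the same arrays. Their score was 0.49, 0.63, -0.29 and 0.33 in the cocaine arrays and -0.78, 0.53 and -0.91 in the shock arrays, a range of 1.54, against 0.073 for the upper-layer, 0.12 for the deep-layer and 0.095 for the projection neuron score. Shock arrays 5 and 6, at the opposite ends of the upper minus deep score, also lay far apart in the immediate early score. Whether the layer score and the activity score are tied was not tested.

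Single arrays stood out among the members to different degrees. Cocaine array 6, which had the lowest mean correlation with the other arrays over all genes (0.993, against 0.996 for each of the other 6), differed by more than 0.1 from the mean of the others for 14 of the 34 members (41.2%) and for 33.8% of genes above the dim level. It was the single highest array for 5 deep-layer genes and for 0 upper-layer genes. It was also the single lowest array for 10 members, among them 3 deep-layer and 4 upper-layer genes. Shock array 6 differed by more than 0.1 for 11 members (32.4%, against 30.6% of genes above the dim level). It was the single highest array for 9 members and the single lowest for 4. The share of all genes was not counted for single highest or lowest arrays, so these counts cannot be read as a trait of the members. Cocaine array 5 had the fewest members beyond 0.1, 3 of 34 (8.82%, against 21.7% of genes above the dim level).

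The median spread of the members was close to that of all genes above the dim level, which were not matched to the members in brightness. The within-group SD had a median of 0.079 over the 34 members, 0.077 over genes above the dim level and 0.093 over all genes. By group it was 0.085 for projection neuron genes, 0.056 for upper-layer genes and 0.11 for deep-layer genes. At the low end were Otof, Rprm (0.017), Syt6 (0.023), Lhx2 (0.024) and Bcl11b (0.024). Behind Neurod6 at the high end came Nxph4 (0.16), Ntsr1 (0.15), Parm1 (0.15), Tle4 (0.14) and Rorb (0.14).

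**Figure D4:**
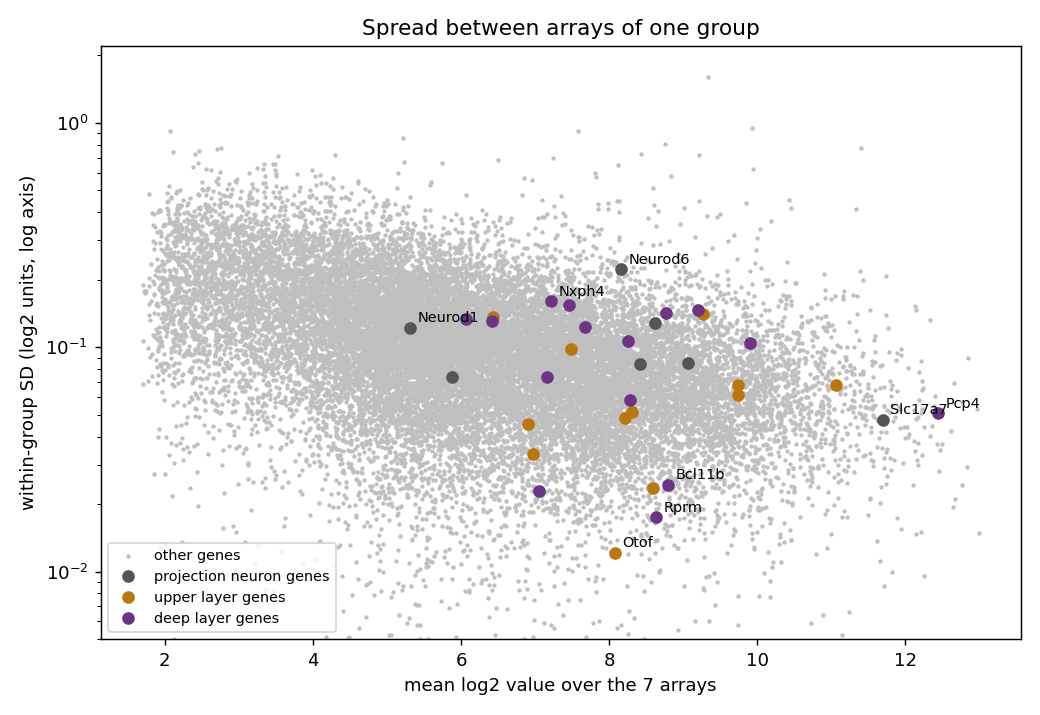
Within-group SD of each gene (log axis) against its mean log2 value over the 7 arrays, with members in colour and all other genes in grey (117 genes with an SD under 0.005 are off the axis). The members spread through the cloud of other genes, from Otof at 0.012 to Neurod6 at 0.22.

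A second list of 41 other cortical layer and projection neuron genes gave 37 measured genes, all above the dim level. Of these, 24 had a higher and 13 a lower cocaine mean, the median difference was 0.0073, and 0 passed the adjusted threshold. At an unadjusted p of 0.05 there was 1 gene, lower in the cocaine arrays (2.37% of all genes had groups that do not overlap and 3.1% passed this p). It was Nfib, a nuclear factor gene of cortical development and also of glia, which averaged 9.62 ± 0.14 (SD, n = 4) in the cocaine arrays and 9.84 ± 0.12 (SD, n = 3) in the shock arrays (difference -0.21, SE 0.089, limma unadjusted p = 0.0478, adjusted p = 0.938). Astrocyte markers, at a median of -0.16 with 7 of 7 lower and 0 past an unadjusted 0.05, lay on the same side, and their part in the Nfib value was not tested. Its relative Nfia differed by -0.15 (SE 0.10). Lamp5, a lysosome-associated membrane protein gene of upper-layer neurons and some interneurons, had groups that did not overlap and differed by 0.11 (SE 0.056, limma unadjusted p = 0.0825). Foxp1, a forkhead gene of several layers, differed by 0.11, Deptor, an inhibitor of mTOR found in layer 5, by 0.084, and Rspo1, a Wnt agonist gene, by -0.097.

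Lists named for other cells, and the immediate early genes, are given for comparison, beside the 3.1% of all genes that passed a limma unadjusted p of 0.05. Which cells gave the RNA of each marker was not tested. For vessel markers the median difference was -0.26 and 3 of 6 passed an unadjusted p of 0.05, all lower, among them Slco1a4 (-0.48) and Flt1 (-0.30). For the 5 striatal markers it was 0.14, and 1 passed, Drd1 (0.33), with Tac1 at 0.14. Inhibitory neuron markers had a median of -0.10 (7 of 10 lower; Sst -0.19, Lhx6 -0.12), with a score of -0.10 to 0.042 in the cocaine arrays and -0.017 to 0.17 in the shock arrays. Microglia markers had a median of -0.098 (Cx3cr1 -0.18, Tmem119 -0.095), oligodendrocyte markers 0.057 (Olig2, -0.16, was the 1 gene to pass an unadjusted 0.05, and Cldn11 was at 0.14) and thalamus markers 0.012 (Prkcd 0.16, Tcf7l2 -0.069). Astrocyte scores ran from -0.18 to 0.088 in the cocaine arrays and from -0.033 to 0.15 in the shock arrays, with Sox9 at -0.20 and Aqp4 at -0.18. The immediate early list had a median of 0.50, and 2 of 10 passed an unadjusted 0.05, both higher: Npas4 (1.49) and Btg2 (1.01). None of the genes in these lists passed the adjusted threshold (limma, smallest adjusted p = 0.938), and the medians of the 3 layer and projection neuron lists (-0.026, 0.011 and -0.0025) lay nearer to 0 than those of these 8 lists, except that the upper-layer median lay farther from 0 than the thalamus one.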

How the data were processed

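Ribosome-bound RNA was measured on 7 one-colour Affymetrix arrays, 4 cocaine-activated and 3 shock-activated, grouped by the labels. The table the authors deposited holds log2 values for 41345 probe sets; that they are log2 was inferred from their range (1.12 to 13.44). Per the submitters' processing notes, Transcriptome Analysis Console was used. The summarization, background correction and normalization: not given in the sources used here. Arrays have no read depth, and precision depends on how many there are.

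Gene names came from GEO's annotation of the platform (23521 probe sets with 1 symbol, 1814 with several, 16010 not listed), and the probe set with the highest mean was kept for each of 22180 genes. The fit over all genes used limma's lmFit and eBayes (limma 3.58.1, R 4.3.3), tests were two-sided, and the contrast was cocaine minus shock with no covariate. Members, lists and motifs were chosen with earlier results of these data known. All members are named, and of other lists the genes of smallest unadjusted p (up to 6 of the second layer list, up to 2 of each other list). The script was tested on simulated data. Alternatives were each array left out, quantile normalization, median centring, a filter on dim genes, averaging over the probe sets of a gene, trend and robust moderation, array weights and a replicate block. Promoter sequences are from RefSeq (GRCm38.p6), and matches were sought on both strands.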

Additional observations from a re-analysis of the deposited data

Results flagged for a closer look

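Among the 4 cocaine arrays, a single array stood far from the other 3 in 6 of the 34 members and in 1 of 5 scores. The gap to the nearest array, as a share of the group's range, was 0.8802 for Neurod2 (cocaine array 6 lowest), 0.8486 for Cux2 (cocaine array 5 highest), 0.9271 for Calb1 (cocaine array 4 lowest) and 0.8733 for Rbp4 (cocaine array 6 highest). It was 1 for Otof (cocaine array 4 lowest) and 1 for Stard8 (cocaine array 6 lowest), because the other 3 cocaine arrays had an identical value. The upper-layer score of cocaine array 5, the highest, had a gap of 0.9089. Chance flags about 1 in 20 groups of independent values, and 39 measures were examined. All flagged members but Cux2 had identical values on some cocaine arrays, which favours a large gap, so the 7 flags cannot be read against that share.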

How the results depend on the processing

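No member passed an adjusted p of 0.05 under any of the 14 alternatives (limma), and neither did any gene. At an unadjusted p of 0.05, 0 members passed in the fit reported and 0 to 1 with 1 array left out: Pou3f2 without cocaine array 4, Pcp4 without shock array 4, Crym without shock array 5, where 2.39% to 3.55% of all genes passed. The count was 1 with dim genes left out (Pcp4, 3.28% of all genes), 1 with trend and robust moderation (Pcp4, 2.98%) and 1 with the replicate block (Neurod6, 4.13%), so it stayed near the share of all genes. Groups that do not overlap numbered 0 members as reported, 1 after quantile normalization (Lhx2, 4.69% of all genes), 3 after median centring (Slc17a7, Pcp4 and Syt6, 11.4% of all genes), 1 with the mean of the probe sets (Cux1, 2.48%), and 0 to 4 with 1 array left out (4.04% to 9.68%, the 4 being without shock array 5, at 9.68%). The interval within 1.5-fold held for 33 of 33 members with dim genes left out. It held for 33 of 34 without cocaine array 5, cocaine array 7, shock array 4 or shock array 6. In the other alternatives it held for 34 of 34.

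With the title number as a replicate block, cocaine array 7 was alone in its block and did not add to the differences. They equalled those without cocaine array 7, and the projection neuron median was -0.04879 in both. The median residual SD of the members was 0.0622 once the blocks were fitted. It is a different measure from the within-group SD of 0.0790. Deviations of same-numbered arrays correlated at 0.128, 0.0639 and 0.158 over all genes (numbers 4, 5 and 6). The other pairs of a cocaine and a shock array had -0.118 to 0.0899. The highest of these was shock array 5 with cocaine array 7, whose number no shock array has. Among cocaine arrays 4, 5 and 6, each shock array correlated best with its own number. No label says that the numbers pair the arrays, so the fit reported leaves them out, and a pairing was not tested. With 1 array left out, the projection neuron median ran from -0.04879 to 0.03949. The other medians and the upper minus deep score moved by less than the spread between arrays, though leaving out cocaine array 6 gave a deep-layer median of -0.0044, leaving out shock array 4 one of -0.0020, and the layer score 0.0172 without shock array 5.

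The sign of 19 member differences changed when 1 array was left out. The ranges were -0.1026 to 0.02072 for Slc17a6, -0.01077 to 0.2419 for Neurod6, -0.04879 to 0.03949 for Tbr1, -0.0997 to 0.00165 for Emx1, -0.009532 to 0.05771 for Cux1, -0.09455 to 0.04289 for Cux2, -0.04544 to 0.04266 for Rasgrf2, -0.03552 to 0.01322 for Pou3f3, -0.01 to 0.02139 for Mdga1, -0.08517 to 0.008725 for Wfs1. They were -0.1079 to 0.03451 for Fezf2, -0.1043 to 0.02902 for Tle4, -0.08923 to 0.1043 for Foxp2, -0.07992 to 0.06922 for Etv1, -0.02367 to 0.1287 for Nxph4, -0.005955 to 0.00944 for Rprm, -0.1441 to 0.00423 for Parm1, -0.04135 to 0.09674 for Rbp4 and -0.03903 to 0.1743 for Ntsr1. Of the 15 members that kept their sign, Pcp4 has its range given with its values. Others ran from -0.08488 to -0.01104 (Neurod2), -0.1053 to -0.01022 (Calb1), -0.1816 to -0.05023 (Rorb) and -0.01819 to -0.003615 (Otof). Lhx2 ran from -0.05043 to -0.02368, Stard8 from -0.06523 to -0.002757, Crym from -0.1293 to -0.04103 and Cplx3 from -0.1507 to -0.01337. On the higher side were 0.04665 to 0.1024 (Slc17a7), 0.05169 to 0.156 (Neurod1) and 0.05742 to 0.1829 (Pou3f2). There too were 0.00867 to 0.0308 (Bcl11b), 0.02882 to 0.05058 (Syt6) and 0.005585 to 0.07576 (Sulf1). With median centring the difference was 0.01766 for Tbr1, 0.01373 for Pou3f3, 0.006886 for Otof, 0.01378 for Etv1 and 0.01988 for Rprm. With array weights it was 0.004772 for Slc17a6, 0.003021 for Tbr1 and -0.0004435 for Rasgrf2. With the replicate block, exactly as without cocaine array 7, it was 0.01322 for Pou3f3, -0.004407 for Mdga1 and 0.00208 for Etv1. Apart from limits named above, the cause of these changes was not tested.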

Other observations

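In the upper minus deep score, cocaine and shock arrays with the same title number lay closer together than other pairs, but most other scores showed this less or not at all. This was noticed in the values and is given as a description, with no test, and no label says what the number stands for. The score was -0.0037 on cocaine array 4 and 0.014 on shock array 4, 0.043 on cocaine array 5 and 0.081 on shock array 5, and -0.049 on cocaine array 6 and -0.064 on shock array 6. The 3 pairs with the same number lay 0.015 to 0.037 apart, on average 0.023, and the 9 other pairs of a cocaine and a shock array 0.029 to 0.13 apart, on average 0.073.

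The second list of layer genes did not show it, with an average gap of 0.0186 for the same number and 0.0191 for other pairs. The score of all 34 members went the other way, at 0.0220 and 0.0191. The averages were 0.025 and 0.045 for projection neuron genes, 0.016 and 0.041 for upper-layer genes and 0.032 and 0.053 for deep-layer genes. Other lists with a smaller average for the same number were astrocyte (0.12 and 0.18), vessel (0.22 and 0.30), oligodendrocyte (0.094 and 0.13), thalamus (0.078 and 0.094) and immediate early (0.66 and 0.92). The averages were close for inhibitory (0.099 and 0.10) and microglia markers (0.092 and 0.094), and the larger one was that of the same number for striatal markers (0.17 and 0.15).

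For single genes, both arrays numbered 5 held the highest 2 values of Cux1, Cux2, Rorb and Pou3f3 (4 of 34 members, against 5.69% of genes above the dim level) and the lowest 2 of Etv1 alone (3.78%). Both arrays numbered 6 held the highest 2 values of Tle4, Foxp2, Rbp4, Ntsr1 and Sulf1 (5 of 34 members, against 5.93%). They held the lowest 2 of Cux2, Rasgrf2, Mdga1, Neurod2 and Emx1 (5 of 34 members, against 10.6%). Both arrays numbered 4 held the lowest 2 values of Tle4, Nxph4, Rbp4, Ntsr1, Pou3f2 and Otof (6 of 34 members, against 6.75%). They held the highest 2 of Neurod2 alone (6.24%). The upper- and deep-layer genes among these make up the upper minus deep score, so the counts restate its pattern and do not add to it. Pairs of arrays with different numbers held 0 to 4 members at either end. The 4 were Neurod1, Neurod6, Bcl11b and Pcp4, highest on cocaine arrays 4 and 6, where 3.2% of genes above the dim level were. Those arrays belong to the same group. Pairs of a cocaine and a shock array with different numbers held 0 to 3 members at either end. Whether the number marks a day, a dissection or a batch was not tested.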
